A study of Homo sapiens with 2 samples.

Results

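Pseudogenes of cytosolic ribosomal protein genes were followed in Hep3B cells. They were the symbols made of a large- or small-subunit ribosomal protein gene (RPL or RPS and a number, with an optional A or X) followed by P and a number, with at least 10 counts over both libraries. Of 43424 symbols in the files, 28 had such a name and 13 reached the minimum. The members were thus chosen by name and by their counts summed over both libraries. The tested library came from cells given an extract of the plant Glehnia littoralis (GLE), and its reference from cells labelled as the DMSO control, with 1 library per group. Both were Hep3B, an established human hepatocellular carcinoma line labelled WT in genotype, and each library was prepared from 500 ng of total RNA with a Lexogen kit that reads the 3′ ends of polyadenylated RNA. The dose and the exposure time of the sequenced cells, and the solvent of the extract, were not given in the sources used here.

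Ribosomal protein genes are among the most heavily transcribed genes of a cell, and their messages have been copied back into the genome many times by the reverse transcriptase of LINE-1 elements. Such a processed pseudogene lacks introns, has gathered substitutions since it was inserted, and depends on neighbouring sequence for transcription. Others arose as duplicated pieces of a gene and keep introns, and are called unprocessed. A read from a young copy can be identical to one from the parent gene, so that each pseudogene has to be read beside its parent and its sequence.

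The GLE library held 3636351 counts and the DMSO library 5618328, so that a floor of 3 counts stood for 0.848 CPM (counts relative to the scaled library total) in GLE and 0.519 CPM in DMSO. The 8 hepatoma markers ranged from 145 to 25268 counts in GLE and from 529 to 41784 in DMSO. The 6 markers of blood, fibroblast and endothelial cells summed to 140 counts in GLE and 164 in DMSO, of which CD68 held 96 in GLE and 117 in DMSO. The fibroblast collagens COL1A1 and COL1A2 had 29 and 11 counts in GLE, against 4 and 6 in DMSO. The endothelial marker PECAM1 had 1 count in GLE and 36 in DMSO, VWF was at 0 in both, and the leukocyte marker PTPRC had 3 in GLE and 1 in DMSO. The part of these markers in the results was not tested. Mitochondrial ribosomal RNA took 13.2% of counts in GLE and 8.52% in DMSO, and with scaling factors computed without mitochondrial genes the summed ratio of the pseudogenes given below stayed at 2.39. With 1 library per group no test between the conditions was possible, and differences have no replicate check. Every interval given is a 95% interval of counting error alone, and without molecular identifiers the reads cannot be taken as independent molecules. In bulk RNA, a share of cells with more of a transcript and more of it in every cell cannot be told apart.

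RefSeq lists each of the 13 as a transcribed pseudogene, as it does every symbol of the naming rule that stayed under the minimum. GENCODE release 29 calls 7 of them processed, 4 transcribed processed and 2 (RPL32P3 and RPL23AP82) transcribed unprocessed. They lie on 9 chromosomes, and 2 share a chromosome with their parent. To show how far the copies have drifted, the last 90 coding bases of the parent are set above the aligned bases of the pseudogene, from GENCODE release 29 transcripts (GRCh38), 5′ to 3′ on the transcribed strand. Capitals mark bases that differ from the parent, and positions in substitutions count from 1 at the 5′ end of the parent's window.

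The RPL13A family is shown because its copies differ in how much sequence they share with the parent over their whole transcripts. In this window only RPL13AP5 is identical to the parent. RPL13A itself lies on chromosome 19. The window of RPL13AP5 is at chr10:96750810-96750899 (plus strand) and has 0 substitutions, that of RPL13AP20 is at chr12:12876021-12876107 (plus) with C10T and G60A and 3 bases missing at its end, and that of RPL13AP3 is at chr14:55766703-55766790 (plus) with G34A and T44C and 2 bases missing.
RPL13A: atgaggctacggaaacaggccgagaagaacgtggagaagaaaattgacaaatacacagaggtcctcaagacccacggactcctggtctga
RPL13AP5: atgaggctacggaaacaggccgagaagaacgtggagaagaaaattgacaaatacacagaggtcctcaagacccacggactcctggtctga
RPL13AP20: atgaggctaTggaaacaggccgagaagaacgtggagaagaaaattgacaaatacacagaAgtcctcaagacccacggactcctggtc
RPL13AP3: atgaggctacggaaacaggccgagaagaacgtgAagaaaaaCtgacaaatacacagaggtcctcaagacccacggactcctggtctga

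The next pairs are shown because their counts differed most between the libraries or between pseudogene and parent. RPS16P5, at chr6:53336944-53337026 (minus), has 17 substitutions over 83 aligned bases of RPS16 on chromosome 19.
RPS16: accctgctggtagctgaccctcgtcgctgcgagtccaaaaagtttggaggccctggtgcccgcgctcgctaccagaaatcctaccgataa
RPS16P5: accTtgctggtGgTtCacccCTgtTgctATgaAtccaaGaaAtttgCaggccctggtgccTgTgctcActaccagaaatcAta
RPS15AP10, at chr1:45645816-45645905 (minus), has 10 substitutions over 90 bases of RPS15A on chromosome 16.
RPS15A: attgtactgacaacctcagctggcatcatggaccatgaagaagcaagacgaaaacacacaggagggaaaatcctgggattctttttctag
RPS15AP10: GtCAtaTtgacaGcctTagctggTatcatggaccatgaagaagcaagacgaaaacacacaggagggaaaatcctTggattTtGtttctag
RPL21P44, at chr4:53986589-53986676 (minus), has 7 substitutions over 88 aligned bases of RPL21 on chromosome 13.
RPL21: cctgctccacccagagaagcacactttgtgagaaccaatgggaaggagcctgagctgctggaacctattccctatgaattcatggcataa
RPL21P44: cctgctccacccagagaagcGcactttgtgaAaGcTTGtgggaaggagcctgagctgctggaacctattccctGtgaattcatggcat
RPL19P12, at chr7:103141349-103141438 (minus), has 6 substitutions, G8A, C13A, C16T, G17A, G26A and A63G, over 90 bases of RPL19 on chromosome 17.
RPL19: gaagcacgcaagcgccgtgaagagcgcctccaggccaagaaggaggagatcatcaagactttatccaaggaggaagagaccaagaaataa
RPL19P12: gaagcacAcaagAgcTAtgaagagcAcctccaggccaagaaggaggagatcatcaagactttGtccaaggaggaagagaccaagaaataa

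Over the longest aligned stretch, identity to the parent ran from 76.4% in RPL13P5 to 99.5% in RPL13AP5. To judge which reads could be shared, every stretch of 75 bases in the pseudogene's annotated transcripts was looked up in the parent's transcripts. Of the 13 pseudogenes, 11 had no 75-base stretch in common with the parent. The exceptions were both copies of RPL13A. In RPL13AP5, 321 of 538 such stretches (59.7%) were identical to the parent, and in RPL13AP20 58 of 535 (10.8%).

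With stretches of 50 bases, the shares were 73.4% for RPL13AP5 and 24.1% for RPL13AP20. Another 6 pseudogenes shared between 0.0757% and 3.87% of their 50-base stretches with the parent. RPL32P3, RPL21P44, RPS16P5, RPL13P5 and RPS2P32 shared none. The read length and the treatment of reads that fit several places were not given in the sources used here, so these shares describe the annotated sequences and not the reads. Only GENCODE transcripts were searched. For RPS16P5 they hold 404 of the 3158 bases in its RefSeq span, and for RPL21P44 472 of 1797. For RPS15AP10 they hold 382 of 914, for RPL19P12 591 of 1134 and for RPS14P3 455 of 838. The rest of these spans was not searched. The aligned copies of RPL19P12, RPS16P5, RPS14P3, RPS15AP10 and RPL21P44 stop 84, 73, 57, 53 and 45 bases before the parent's 3′ end. Since the kit reads 3′ ends, reads of these members may come from bases that were not searched.

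Other genes also hold stretches of some pseudogenes. In RPL13AP5, 229 of the 538 stretches of 75 bases were found in transcripts of genes other than RPL13A, chiefly the RPL13A pseudogenes RPL13AP25 and RPL13AP7. RPL23AP82 had 1684 of 4226 in other genes, led by RPL23AP7. RPL13P5 had 563 of 1851, all in LRRC23, which overlaps it on the same strand. These came from GENCODE transcripts of RPL13P5, which spans 11353 bases there. Within the RefSeq span of RPL13P5, 634 bases, LRRC23 has no exon. RPL13AP20 had 58 of 535, led by RPL13AP5, and RPS18P9 had 16 of 1651 in another gene. The other 8 pseudogenes had 0 at this length. At 50 bases, RPS2P32 had 32 of 843 in other genes, RPS14P3 27 of 406 and RPL13AP3 24 of 1492. RPL21P44 had 20 of 423, RPL19P12 14 of 542 and RPS15AP10 1 of 333, while RPL32P3 and RPS16P5 had 0.

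**Figure D1:**
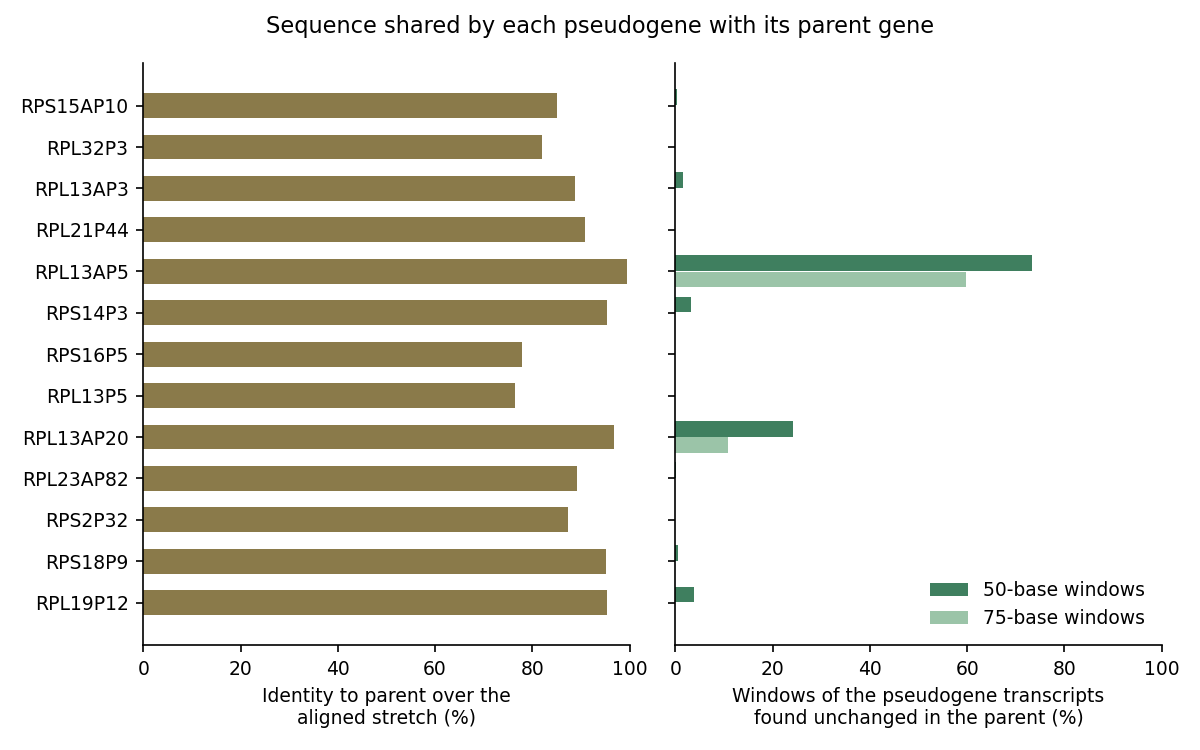
Left, identity of each pseudogene to its parent over the aligned stretch (%); right, the share (%) of its 50-base and 75-base stretches found unchanged in the parent's transcripts. RPL13AP5 (73.4% and 59.7%) and RPL13AP20 (24.1% and 10.8%) stand apart from the other members, which share at most 3.87% at 50 bases and none at 75.

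RPS15AP10 held the most counts, 89 in the GLE library and 41 in the DMSO library, or 25.2 CPM and 7.10 CPM. Its ratio of GLE over DMSO was 3.55 (2.42 to 5.27). The parent RPS15A, a small-subunit protein gene on chromosome 16 (18781295 to 18790334, GRCh38), had 2112 counts in GLE and 2478 in DMSO, a ratio of 1.39 (1.31 to 1.48). The ratio of the pseudogene was therefore 2.55 times that of its parent (1.73 to 3.80), a comparison that needs no scaling between libraries. The pseudogene supplied 4.04% of the counts of the pair in GLE (Clopper-Pearson 3.26 to 4.95) and 1.63% in DMSO (1.17 to 2.20), the highest such share among the 13 in each library. RefSeq places RPS15AP10 at 45645772 to 45646685 on chromosome 1, within an intron of GPBP1L1 on the same strand. GPBP1L1 had 124 counts in GLE and 231 in DMSO, a ratio of 0.877 (0.699 to 1.10), and the ratio of the pseudogene was 4.03 times that of this gene (2.58 to 6.38).

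RPL13AP3 had 35 counts in GLE and 0 in DMSO. Against a floor of 3 counts in DMSO it was at least 19.1-fold higher in GLE, and the lower end of its counting interval was 14.7. RPL13A, whose protein also takes part in a complex that silences inflammatory messages, had 5563 counts in GLE and 7255 in DMSO, a ratio of 1.25 (1.21 to 1.30). Against the same floor the ratio of the pseudogene was at least 15.2 times that of RPL13A, and the interval began at 11.7. RPL13AP3 (chromosome 14, 55766161 to 55767717) lies in the non-coding RNA gene AL355773.1 on the same strand, which GENCODE gives no exon there. It is 88.8% identical to its parent over 1030 bases of its own, and its DMSO share of the pair's counts was 0 with an upper limit of 0.0508%.

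RPS16P5 showed the same pattern, with 22 counts in GLE and 0 in DMSO. It was at least 12.0-fold higher in GLE against the floor, with an interval beginning at 8.95. Its parent RPS16, a small-subunit protein gene on chromosome 19 (39433137 to 39435949), was at 0.937 (0.912 to 0.963), with 8003 counts in GLE and 13955 in DMSO. RPS16P5 is annotated at 53334460 to 53337617 on chromosome 6, inside an intron of ELOVL5, an elongase of polyunsaturated fatty acids, on the same strand. ELOVL5 had 379 counts in GLE and 406 in DMSO, a ratio of 1.53 (1.32 to 1.76). The ratio of the pseudogene was at least 7.86 times that of ELOVL5 against the floor, with an interval beginning at 5.80.

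RPL21P44 had 33 counts in GLE and 6 in DMSO, a ratio of 8.99 (3.72 to 26.2). The parent RPL21, a large-subunit protein gene on chromosome 13, had 1602 and 2255 counts in GLE and DMSO, a ratio of 1.16 (1.09 to 1.24). RefSeq places the pseudogene at 53985486 to 53987282 on chromosome 4 and RPL21 at 27251558 to 27256568 on chromosome 13. The ratio of RPL21P44 was 7.74 times that of RPL21 (3.19 to 22.6). GENCODE has the protein-coding gene AC058822.1 across it on the opposite strand, with no exon inside its span. The pseudogene supplied 2.02% of the counts of the pair in GLE (1.39 to 2.82) and 0.265% in DMSO (0.0974 to 0.577).

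RPL32P3 had 59 counts in GLE and 48 in DMSO, a ratio of 2.01 (1.35 to 3.0). RPL32, its parent on chromosome 3, had a ratio of 1.09 (1.06 to 1.12), and the pseudogene's ratio was 1.85 times as high (1.24 to 2.76). The ratio of RPL32P3 passed 2 only under some scalings, and was 1.90 by total counts and 1.97 by upper-quartile factors. This unprocessed copy spans 16606 bases of chromosome 3 (129382834 to 129399439), away from RPL32 at 12834485 to 12841582. It holds the small nucleolar RNA gene SNORA7B, which had 4 counts in GLE and 0 in DMSO. GENCODE also has AL449212.1 there on the opposite strand, with 378 exon bases inside the span. Without the strand setting of the counting, reads of AL449212.1 cannot be told apart from those of RPL32P3.

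The remaining copies of RPL13A (chromosome 19, 49487608 to 49492308) were those with 75-base stretches in common with the parent. They were RPL13AP5 on chromosome 10 (96750266 to 96750923) and RPL13AP20 on chromosome 12 (12875477 to 12876136). RPL13AP5 had 26 counts in GLE and 14 in DMSO, a ratio of 3.03 (1.53 to 6.29), which was 2.42 times that of RPL13A (1.22 to 5.02). RPL13AP20 had 11 counts in GLE and 7 in DMSO, a ratio of 2.57 (0.909 to 7.81), and a difference from 1 or from the parent (2.05, 0.725 to 6.24) was not detectable at this depth. Counts of both are uncertain because 59.7% and 10.8% of the 75-base stretches in their transcripts were identical to RPL13A. All 5 symbols of the RPL13A family, with RPL13AP6 and RPL13AP17 under the minimum, summed to 73 counts in GLE and 24 in DMSO. The family ratio was 4.97 (3.10 to 8.25), or 3.97 times that of RPL13A (2.47 to 6.59). Of the family's counts, RPL13AP3 held 35 in GLE and 0 in DMSO, and it reached the minimum only through the GLE library. The family ratio therefore describes these summed counts and is no separate support for a rise across the family.

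The 6 symbols of the RPL23A family gave another picture. They summed to 17 counts in GLE and 20 in DMSO, a ratio of 1.39 (0.683 to 2.79). RPL23A had a ratio of 2.01 (1.95 to 2.08), the highest among the 11 parents, and the ratio of its copies was 0.690 of that (0.339 to 1.39). RPL23AP82, the one copy above the minimum, had 8 counts in each library, a ratio of 1.63 (0.535 to 4.99). It spans 50757086 to 50799637 on chromosome 22 and overlaps RABL2B, a small GTPase gene on the opposite strand, with 74 counts in GLE and 181 in DMSO. Since the strand setting of the counting was not given in the sources used here, those of such overlapping genes cannot be told apart.

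RPL19P12 was the one pseudogene with fewer scaled counts in GLE beyond counting error. It had 1 count in GLE and 14 in DMSO, a ratio of 0.117 (0.00276 to 0.767). RPL19, its parent, lay at 1.35 (1.29 to 1.40), and the ratio of the pseudogene was 0.0866 of the parent's (0.00205 to 0.570). NAPEPLD, a phospholipase gene that spans the pseudogene (chromosome 7, 103141270 to 103142403) on the same strand, had 23 counts in GLE and 69 in DMSO, a ratio of 0.545 (0.324 to 0.884). The interval of RPL19P12 relative to NAPEPLD, 0.00486 to 1.58, included 1.

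The other 4 pseudogenes were RPS14P3 (chromosome 1, 19607807 to 19608644), RPL13P5 (chromosome 12, 6883981 to 6884614), RPS2P32 (chromosome 7, 23490388 to 23491428) and RPS18P9 (chromosome 6, 149593616 to 149594602). For these, neither a difference between the libraries nor one from the parent was detectable at this depth. RPS14P3 had 23 counts in GLE and 40 in DMSO, a ratio of 0.940 (0.537 to 1.61), beside 0.820 (0.792 to 0.848) for RPS14. MICOS10, the gene of a mitochondrial crista protein that spans RPS14P3 on the same strand, was at 0.795 (0.661 to 0.953). RPL13P5 had 13 counts in GLE and 31 in DMSO, a ratio of 0.685 (0.329 to 1.35), beside 1.21 (1.15 to 1.27) for RPL13. RPS2P32, with 8 counts in GLE and 11 in DMSO, was at 1.19 (0.415 to 3.24). RPS18P9, with 7 counts in GLE and 9 in DMSO, was at 1.27 (0.402 to 3.84). Their parents RPS2 and RPS18 were at 1.04 (1.00 to 1.07) and 0.990 (0.963 to 1.02).

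**Figure D2:**
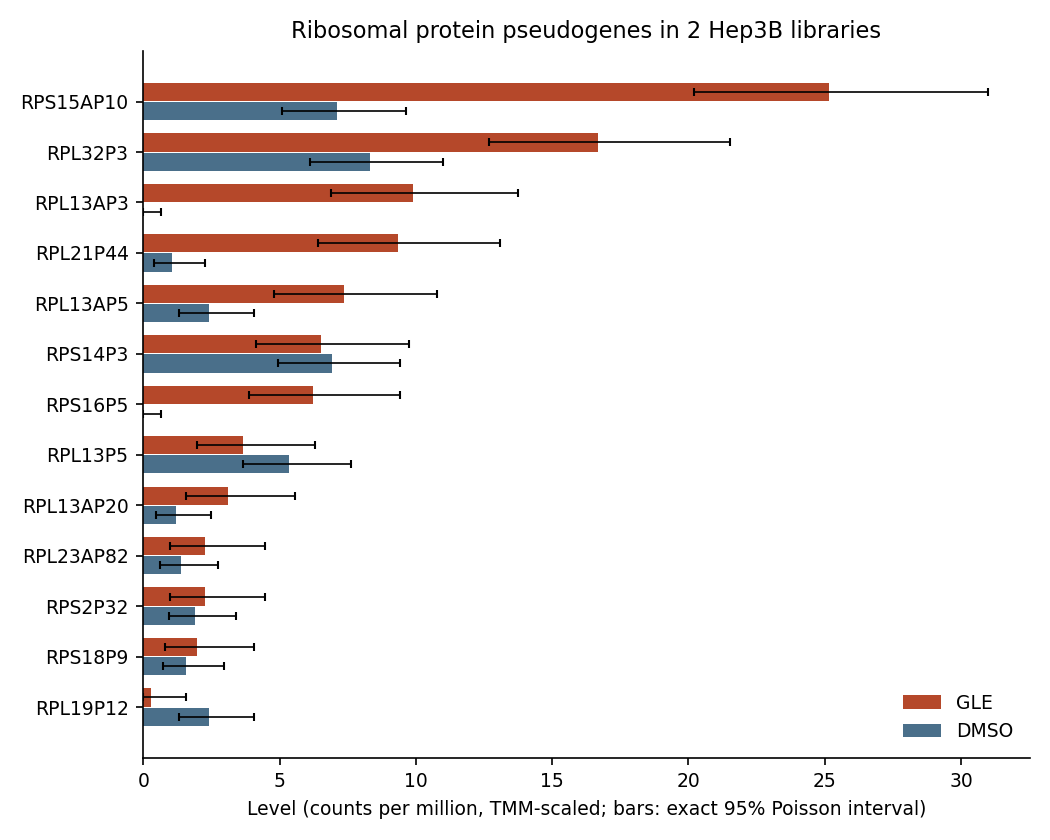
Level of each pseudogene in the GLE and the DMSO library (CPM, TMM-scaled; error bars are exact 95% Poisson intervals of the count). RPS15AP10 reaches 25.2 CPM in GLE and 7.10 CPM in DMSO, and RPL13AP3 and RPS16P5 have bars in GLE only.

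**Figure D3:**
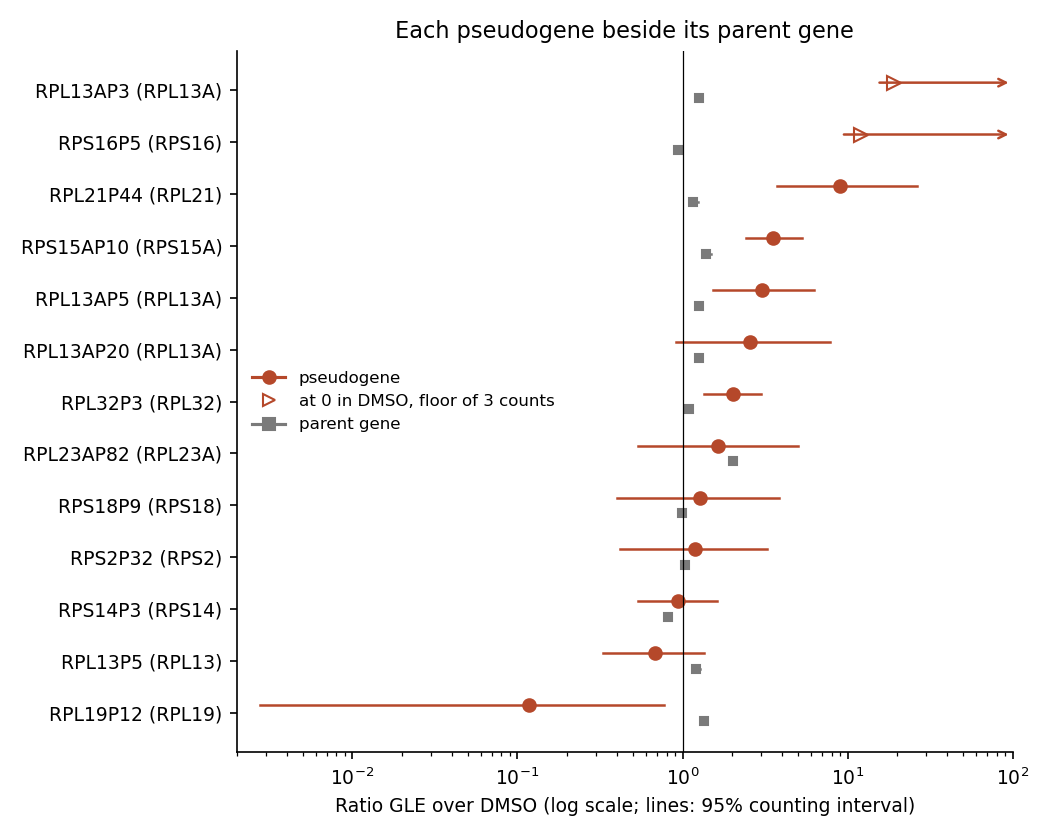
Ratio of GLE over DMSO (log scale) for each pseudogene and its parent gene in brackets, with 95% counting intervals; open triangles are bounds against a floor of 3 DMSO counts. Parents, with a median of 14053 counts over both libraries, lie between 0.820 and 2.01. The pseudogenes, with a median of 35 counts, run from 0.117 for RPL19P12 to at least 19.1 for RPL13AP3.

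Among the 13 pseudogenes, 7 were higher in GLE by a factor of 2 or more and 1 was lower by as much, with 0.5 added to each count. The background over 13240 genes with at least 10 counts was 12.4% in the higher direction and 13.4% in the lower. Low counts scatter more, and over the 4780 genes with 15 to 130 counts, the range of the pseudogenes, those shares were 18.2% and 21.2%. The counting interval lay above 1 for 6 pseudogenes and below 1 for 1, against 26.3% and 27.9% of all genes and 20.6% and 22.4% of genes in the same count range. It lay wholly above 2-fold for RPL13AP3, RPS16P5, RPL21P44 and RPS15AP10, a size that 4.64% of all genes and 5.75% in the count range reached. It lay wholly below 0.5 for 0 pseudogenes, against 2.96% and 4.5%. A DMSO count of 0 with 20 or more counts in GLE was seen for 2 of 13, against 0.128% of all genes and 0.356% in the count range. RPL13AP3, RPS16P5, RPL21P44 and RPL19P12 reached the minimum only through the library where they were high, since fewer than 10 counts would be expected with both libraries at the level of the lower one. To pass they had to differ, though RPL21P44 only slightly, with 9.67 counts expected at the lower level. The counts above therefore describe the 13 that passed and support nothing further. Without these 4, a choice made after seeing the data, 4 of 9 were higher by a factor of 2 or more and 0 lower. The interval lay above 1 for 3 of the 9, below 1 for 0, and wholly above 2-fold for 1, RPS15AP10. The shares over all genes were not recomputed without genes that pass through 1 library, so these 9 have no like background.

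The median log2 ratio of the 13 was 1.00, beside -0.04 over all genes and -0.08 in the count range. It was 0.71 over the 11 without RPL13AP3 and RPS16P5, and 0.71 over the 9 without the 4 that passed through 1 library. Summed, the 13 had 335 counts in GLE and 229 in DMSO, or 94.7 CPM and 39.6 CPM, a ratio of 2.39 (2.01 to 2.84). The ratio of the sum was 1.98 (1.66 to 2.37) without the 2 members at 0 in DMSO. Without the 4 that passed through 1 library it was 1.91 (1.58 to 2.31), on 244 counts in GLE and 209 in DMSO. Without RPS15AP10, RPL13AP3, RPL21P44 and RPS16P5, picked out after their values were seen, the other 9 summed to 156 counts in GLE and 182 in DMSO, a ratio of 1.40 (1.12 to 1.74).

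The parent genes spanned a narrower range of ratios, at far higher counts. The median over both libraries was 14053 counts for the 11 parents and 35 for the 13 pseudogenes, and low counts scatter more. Of the 79 cytosolic ribosomal protein genes, 1 (RPL23A) was higher in GLE by a factor of 2 or more and 0 were lower by as much. RPL23A was at 2.01 by TMM, as was RPL32P3, whose ratio fell to 1.90 by total counts. The count among the 79 was not recomputed under other scalings. Their median log2 ratio was 0.22. The 11 parents had a median of 0.22, with the interval above 1 for 8 and below 1 for 2, RPS14 and RPS16. The ratio of the pseudogene lay above that of its parent by its interval for 6 of 13 and below it for 1, and for 3 of 9 and 0 of 9 without the 4 that passed the minimum through 1 library. As a comparison, 88 other pseudogenes named after a gene of the files and with at least 10 counts were set against their parents. Among these the interval lay above the parent for 19 (21.6%) and below it for 16 (18.2%). Those that pass through 1 library were not left out of the 88, so these shares are not a like background for the 9. Their median log2 ratio was -0.00, with 22.7% higher in GLE by a factor of 2 or more and 23.9% lower. Pseudogenes of RPLP0, RPLP1, RPLP2 and RPSA, which the naming rule leaves out, numbered 3 in the files, and none had 10 counts.

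**Figure D4:**
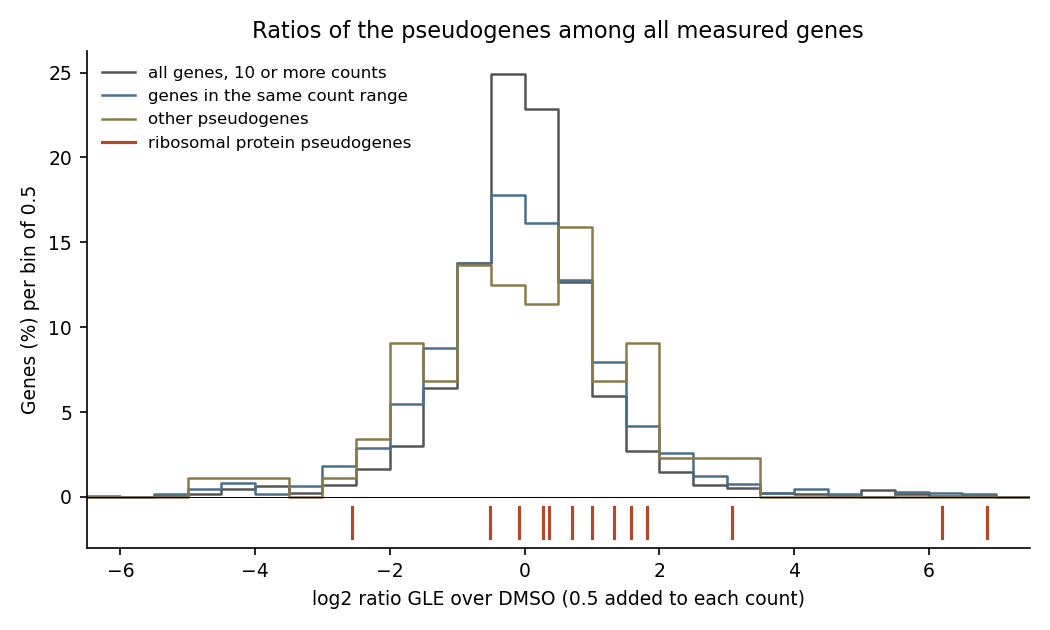
Distribution of the log2 ratio of GLE over DMSO (bins of 0.5) for all genes with at least 10 counts, genes in the same count range and the 88 other pseudogenes, with a tick for each ribosomal protein pseudogene. The ticks run from RPL19P12 on the left to RPL13AP3 and RPS16P5 on the right, whose places depend on the 0.5 added to a count of 0, and their median is 1.00 beside -0.04 for all genes.

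Annotated size was a feature that the naming rule did not use. For the 9 pseudogenes with a single-exon copy, the RefSeq span was compared with the aligned copy, and the excess can include copies of the parent's untranslated ends. In order of size, the excess was 2755 bases in RPS16P5, 1327 in RPL21P44, 544 in RPL19P12, 532 in RPS15AP10, 527 in RPL13AP3, 383 in RPS14P3, 151 in RPS2P32, 51 in RPL13AP20 and 46 in RPL13AP5. Whether the counts fell in the copy or in the excess cannot be read from counts per gene.

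Another gene overlapped 9 of the 13 pseudogenes in RefSeq or GENCODE. The 4 without one were RPL13AP5, RPL13AP20, RPS2P32 and RPS18P9, whose ratios were 3.03, 2.57, 1.19 and 1.27. Next to RPL13P5 lies DSTNP2, a pseudogene of the actin-severing protein destrin, with 10 counts in GLE and 18 in DMSO, a ratio of 0.908 (0.374 to 2.07). Beside RPS18P9, KATNA1, a microtubule-severing subunit, had a ratio of 1.60 (1.25 to 2.04) on 133 counts in GLE and 136 in DMSO. LOC124901526, also beside it, had 17 counts in GLE and 6 in DMSO, a ratio of 4.63 (1.74 to 14.3). LOC105375434, which overlaps the span of RPL19P12, had 16 counts in GLE and 18 in DMSO, a ratio of 1.45 (0.693 to 3.02), and the ratio of RPL19P12 was 0.0838 of that (0.00179 to 0.670). These neighbours were picked after the values were seen.

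Of the 28 symbols, 15 stayed under the minimum, 13 of them with a count and 2, RPL23AP87 and RPL29P2, with 0 in both libraries. The members just above the minimum were RPL19P12 with 15 counts over both libraries, and RPL23AP82 and RPS18P9 with 16 each. Just below it were RPL23AP53 with 3 counts in GLE and 6 in DMSO, RPL23AP7 with 6 in GLE and 0 in DMSO, and RPS26P11 with 0 in GLE and 5 in DMSO. Together the 15 had 19 counts in GLE and 24 in DMSO, a ratio of 1.29 (0.670 to 2.46), and with them the sum over all 28 had a ratio of 2.29 (1.94 to 2.70).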

How the data were processed

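The authors deposited 1 file per library with unnormalised whole-number counts for each gene symbol. The submitters' processing notes name fastp, STAR and HTSeq and the build GRCh38, without versions. Annotation, strand setting and read length were not given in the sources used here. Counts were scaled by TMM in edgeR 4.0.16 (R 4.3.3), with factors of 0.972 for GLE and 1.03 for DMSO, and CPM values were computed from them. Ratios carry exact Clopper-Pearson 95% intervals of the GLE share of a gene's counts. A pseudogene and its parent were compared by an odds ratio with an exact conditional interval (SciPy 1.17.1). No test between conditions was made. A count of 0 was set against 3 counts per library. log2 ratios had 0.5 added to each count.

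Sequences and strands came from GENCODE release 29, where 26 of the 28 symbols matched by name and 2 by position, and spans from RefSeq (GRCh38.p14). Alignments were local (Biopython 1.88, match 2, mismatch -3, gap opening -6, extension -1) to principal coding transcripts. The rule named the 8 highest, 8 lowest and 8 most counted members, 5 each way against the parent and members at 0 in a library with 20 or more counts in the other, which came to all 13. The other pseudogenes used for comparison were picked by name and include unprocessed ones. Members and lists were chosen with earlier results of these data known. Neighbouring genes were added after the values were seen. The computation was tested on simulated data. Other settings were further scalings (total counts, DESeq2 1.42.0 size factors, upper quartile, no mitochondrial genes), minimums of none, 30 and 100 counts, 2 added to counts, other fold and interval criteria, thinning, and leaving out overlapped members.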

Additional observations from a re-analysis of the deposited data

How the results depend on the processing

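The median log2 ratio stayed positive under every setting tried. Over 4 other scalings and 2 added to counts, the log2 ratio of each of the 13 stayed within its counting interval in all 65 recomputations. A change of scaling shifts all 13 alike, as for RPL32P3 from 1.00 to 0.92 by total counts. Such shifts are small beside the intervals, so staying within them says little. The count at least 2-fold higher, 7, was 6 or 7 over the other scalings and with 2 added to counts. It was 11 of 26 with no minimum, 2 of 2 with 100 counts and 2 of 4 among members overlapped by no other gene. It was 4 where the whole interval had to pass 2-fold. The count at least 2-fold lower, 1, was 5 with no minimum and 0 with 30 counts, 100 counts, no overlap or the whole interval. The count that differed from the parent, 7, was 2 with 100 counts and 1 among members without overlap. Smaller sets by construction lower such counts. After seeing the data, members were also left out. Without the 2 at 0 in DMSO, the summed ratio was 1.98. Without the 4 that passed the minimum through 1 library, 4 were at least 2-fold higher, 0 lower and 3 differed from the parent, and the summed ratio was 1.91. No paired analysis was possible because each group has 1 library. Depth limited the single members, which had 15 to 130 counts, and the counting interval included 1 for 6 of the 13.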
